A study of Mus musculus with 16 samples.

Results

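A set of 10 genes of the adipocyte, the lipid-storing cell of fat tissue, were followed across cultures of mouse stroma with and without embryonic stem (ES) cells: the secreted factors ADIPOQ, CFD and AGT, the lipid droplet proteins CIDEC and S3-12, the lipases LPL and LIPE, the fatty acid carriers CD36 and FABP4, and the carbonic anhydrase CAR3. S3-12 is the older symbol of perilipin 4. They are 10 of the 30854 target names on the MouseWG-6 v2.0 array, a bead array that reports each transcript through short probes, and 13 of its 45281 probes carry 1 of these names. The genes were chosen by name, with the higher values of some of them in BMP4-treated stroma already known, so the differences between BMP4 and the other conditions in stroma are given as a description and are not tested for them.

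The 16 arrays fell into 6 groups. PA6 mono-cultures, pure cultures of a stromal cell line from mouse bone marrow, had 3 arrays without growth factors (-GFs), 3 with recombinant FGF2 and 3 with recombinant BMP4. ES/PA6 co-cultures, in which mouse ES cells were grown on a PA6 monolayer, had 2 arrays for -GFs, 3 for FGF2 and 2 for BMP4. Every culture was kept for 7 days in serum-free medium, to which the study's methods add insulin, and the factors were present for 3 days at 20 ng/ml for FGF2 and, by the labels, 10 ng/ml for BMP4. The study's methods give a lower dose of BMP4 and place the factor at the onset of culture. Some labels describe the factors as present for 7 days, and the 3 days given here are those of other labels and of the methods. The ES cells carry a knock-in of enhanced green fluorescent protein under the tau promoter, and RNA was taken from all cells of a well together. The comparison of both kinds of culture was meant to separate signals of the stroma from those of the ES cells.

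Adipocytes arise from mesenchymal precursors, and bone marrow stroma is known as a source of both fat and bone cells. The transcription factors PPARG and CEBPA drive the late part of the programme, in which cells take up or make fatty acids, store them as triglyceride in lipid droplets and secrete adipokines. ADIPOQ encodes adiponectin, an adipokine that raises insulin sensitivity. CFD encodes complement factor D, also called adipsin, a serine protease of the alternative complement pathway that fat tissue secretes. AGT encodes angiotensinogen, the precursor of angiotensin, made by liver, fat and other tissues.

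The 250 bases before the annotated start of 4 of these genes are shown because ADIPOQ, CFD and CIDEC ran in parallel over the PA6 arrays, and S3-12 is shown as a lipid droplet gene whose level differed mainly between kinds of culture. Sequences and positions are those of RefSeq on GRCm38.p6, and 7 of the 10 genes have an entry with 9 starts in all. Each is written 5′ to 3′ on the strand of the gene, and capitals mark the letters CCAAT on either strand. ADIPOQ lies on the plus strand at chr16:23146286-23146535, CFD on the plus strand at chr10:79890603-79890852, CIDEC (the upstream of 2 annotated starts) on the minus strand at chr6:113435761-113436010, and S3-12 on the minus strand at chr17:56109783-56110032.
ADIPOQ: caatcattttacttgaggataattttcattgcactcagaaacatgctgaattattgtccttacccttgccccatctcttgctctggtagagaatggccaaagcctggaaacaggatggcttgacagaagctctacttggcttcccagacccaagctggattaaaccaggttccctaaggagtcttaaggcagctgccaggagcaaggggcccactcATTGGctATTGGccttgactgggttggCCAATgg
CFD: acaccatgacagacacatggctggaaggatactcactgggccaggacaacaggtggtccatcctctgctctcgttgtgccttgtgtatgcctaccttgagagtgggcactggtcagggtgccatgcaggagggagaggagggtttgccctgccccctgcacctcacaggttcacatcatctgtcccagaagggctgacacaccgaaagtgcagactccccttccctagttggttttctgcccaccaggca
CIDEC: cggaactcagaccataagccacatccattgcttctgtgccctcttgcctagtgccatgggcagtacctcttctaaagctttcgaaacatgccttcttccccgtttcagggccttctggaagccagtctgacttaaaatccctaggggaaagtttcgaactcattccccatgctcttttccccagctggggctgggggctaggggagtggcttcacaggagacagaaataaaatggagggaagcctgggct
S3-12: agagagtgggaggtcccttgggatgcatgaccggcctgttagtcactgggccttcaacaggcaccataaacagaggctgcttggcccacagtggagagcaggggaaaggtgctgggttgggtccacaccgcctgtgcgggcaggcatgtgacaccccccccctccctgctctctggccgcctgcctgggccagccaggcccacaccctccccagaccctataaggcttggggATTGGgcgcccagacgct

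The ADIPOQ window held CCAAT 3 times, which 2.79% of all 32851 promoter windows of this length do, with the nearest match 2 bases from the start. S3-12 had 1 match, 13 bases from the start, and CD36, not shown, had 1. CFD and CIDEC had none, and 33.8% of all windows held at least 1. The letters TATAAA stood in the AGT window only, 24 bases from the start (12.4% of all windows), TTNNGNAAT stood only before the downstream start of CIDEC (10.2%), and the strict DR1 repeat, the element bound by PPARG with its partner RXR, stood before none of the 7 genes (0.0335%). Both strands were searched, and no motif was shared by ADIPOQ, CFD and CIDEC.

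On each array, 37.3% to 47.0% of the probes were above background (detection p under 0.05), and median raw intensity lay between 177.9 and 232.2. The PA6 arrays had all 8 of the listed stromal markers and all 6 preadipocyte markers above background, none of the 6 neural markers and at most 2 of the 5 brown adipocyte markers. Values are given below as log2 of the normalized intensity, a scale on which 1 unit is a doubling and about 5 to 6 is background. A value is called undetected where its detection p was 0.05 or more. Of the 10 genes, 7 were above background on every array of at least 1 group and entered the tests across all 14829 genes that met this condition. FABP4, CD36 and LIPE did not. CIDEC met it only through the BMP4-treated PA6 arrays.

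**Figure D1:**
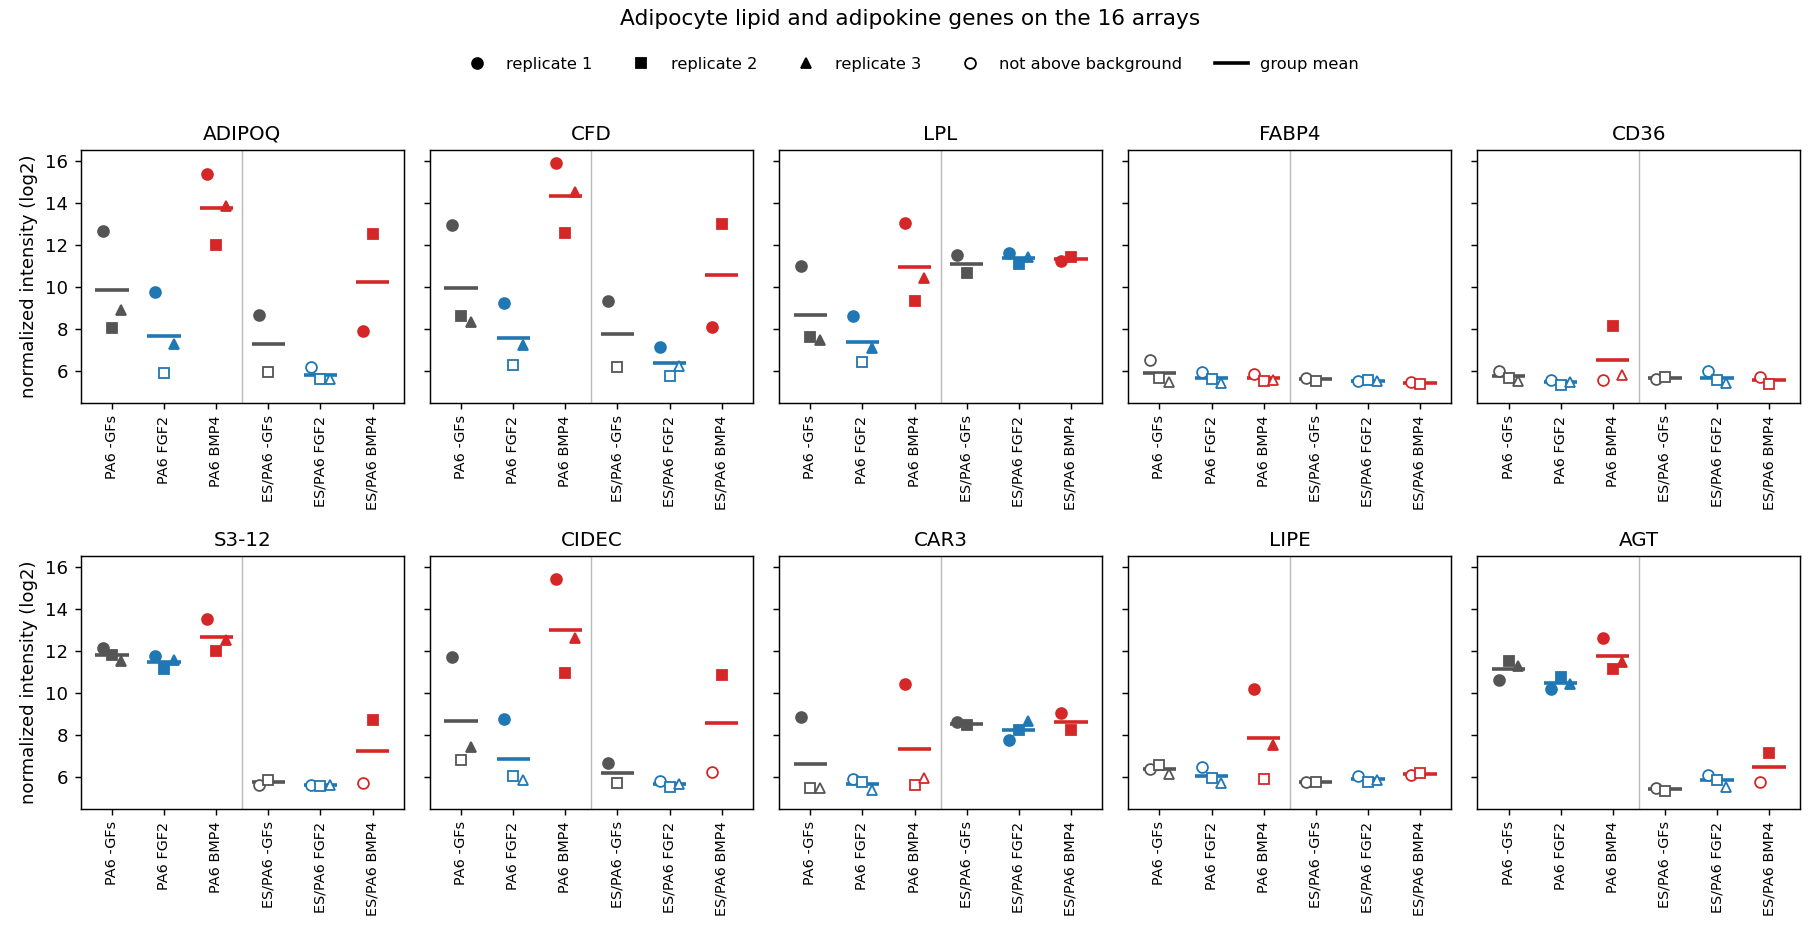
Normalized intensity (log2, vertical axis) of the 10 genes on each of the 16 arrays, by group; points are arrays, shapes are replicate numbers, open points were not above background and bars are group means. ADIPOQ, CFD and CIDEC were highest with BMP4 in PA6 and varied widely between replicates, S3-12 and AGT were near background in nearly all co-cultures, and LPL lay between 10.67 and 11.60 on all 7 co-culture arrays.

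Adiponectin varied over a wide range. In PA6 mono-cultures, ADIPOQ (probe ILMN_2738082) measured 12.69, 8.04 and 8.89 for -GFs replicates 1, 2 and 3, 9.77, 5.92 and 7.30 with FGF2, and 15.38, 12.02 and 13.87 with BMP4. Replicate 1 was the highest of its group in every condition, so that its -GFs array lay above the BMP4 array of replicate 2. In co-cultures ADIPOQ was 8.68 and 5.94 for -GFs, 6.21, 5.64 and 5.64 with FGF2, all 3 undetected, and 7.91 and 12.53 with BMP4.

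Adipsin ran almost parallel. CFD (ILMN_2835423) was 12.94, 8.63 and 8.33 in PA6 -GFs replicates 1 to 3, 9.23, 6.29 and 7.22 with FGF2, and 15.92, 12.58 and 14.51 with BMP4. In co-cultures it was 9.35 and 6.20 for -GFs, 7.13, 5.75 and 6.24 with FGF2, and 8.11 and 13.01 with BMP4. As for ADIPOQ, the highest co-culture value was that of BMP4 replicate 2, which reached the range of the BMP4-treated PA6 arrays.

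Angiotensinogen followed another order. AGT (ILMN_1227398) was 10.63, 11.54 and 11.28 in PA6 -GFs, 10.18, 10.75 and 10.45 with FGF2, and 12.64, 11.17 and 11.47 with BMP4. Here replicate 1 was the lowest array of the -GFs and FGF2 groups and the highest of the BMP4 group. In co-cultures AGT was undetected on 6 of 7 arrays, at 5.36 to 6.11, and 7.16 on BMP4 replicate 2.

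CIDEC, a protein that promotes the fusion and growth of lipid droplets, shared the shape of the adipokines. CIDEC (ILMN_1222679) was 11.72, 6.81 and 7.46 in PA6 -GFs, 8.77, 6.04 and 5.84 with FGF2, and 15.40, 10.96 and 12.60 with BMP4. It was detected on 2, 1 and 3 arrays of these groups. In co-cultures it was 6.69 and 5.71 for -GFs, undetected at 5.55 to 5.80 with FGF2, and 6.24 and 10.87 with BMP4.

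Perilipin 4, a coat protein of small lipid droplets, was high in all stroma. S3-12 (ILMN_2588249) was 12.13, 11.82 and 11.54 in PA6 -GFs, 11.74, 11.15 and 11.55 with FGF2, and 13.51, 12.02 and 12.52 with BMP4. The co-cultures were undetected at 5.58 to 5.86, other than BMP4 replicate 2 at 8.71. All 9 PA6 arrays therefore lay above all 7 co-culture arrays.

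Lipoprotein lipase, which releases fatty acids from circulating lipoproteins, was above background on all 7 co-culture arrays. LPL (ILMN_2692723) measured 11.55 and 10.67 in co-culture -GFs, 11.60, 11.10 and 11.45 with FGF2, and 11.24 and 11.42 with BMP4. In PA6 it was 10.99, 7.60 and 7.47 for -GFs, 8.62, 6.43 and 7.08 with FGF2, and 13.05, 9.35 and 10.45 with BMP4, again with replicate 1 on top. The other LPL probe was undetected on all 16 arrays, so these values rest on 1 probe.

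LIPE, the hormone-sensitive lipase that splits stored lipid inside the cell, was detected on 2 arrays by its brightest probe (ILMN_2742636), at 10.20 and 7.51 on BMP4 replicates 1 and 3 of PA6. Replicate 2 of that group was undetected at 5.93, and the other 13 arrays lay between 5.70 and 6.59. CD36 (ILMN_1232470), a surface carrier of fatty acids, was detected on 1 array, BMP4 replicate 2 of PA6, at 8.17. The array that had CD36 was thus the 1 of its group that lacked LIPE. FABP4 (ILMN_2615947), the cytosolic fatty acid carrier of fat cells also called aP2, was undetected on all 16 arrays at 5.37 to 6.53.

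CAR3, the carbonic anhydrase that is abundant in fat and muscle, was above background in every co-culture and in PA6 replicate 1 only. CAR3 (ILMN_2630047) was 8.60 and 8.48 in co-culture -GFs, 7.76, 8.25 and 8.66 with FGF2, and 9.06 and 8.22 with BMP4. In PA6, -GFs replicate 1 measured 8.87 and BMP4 replicate 1 measured 10.41, and the other 7 arrays were undetected at 5.41 to 5.98.

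By group means, PA6 with BMP4 was the highest of the 6 groups for 7 of the 10 genes, namely ADIPOQ, CFD, CIDEC, S3-12, AGT, LIPE and CD36. Of the 3 arrays of that group, CD36 was above background on 1 and LIPE on 2. The genes were chosen with such values known and the share over all genes was not counted, so nothing is read from this count. LPL was highest in co-cultures with FGF2 and CAR3 in co-cultures with BMP4, and FABP4 had no level to rank. ADIPOQ averaged 13.76 ± 1.68 (SD, n = 3) in BMP4-treated PA6, 10.22 ± 3.27 (n = 2) in BMP4-treated co-cultures, 9.87 ± 2.47 (n = 3) in PA6 -GFs, 7.67 ± 1.95 (n = 3) in FGF2-treated PA6, 7.31 ± 1.94 (n = 2) in co-culture -GFs and 5.83 ± 0.33 (n = 3, undetected) in FGF2-treated co-cultures. Each of these neighbours overlapped in their arrays, as did all neighbouring groups of CFD, LPL, CIDEC and CAR3. For S3-12 and AGT the only gap among detected groups lay between FGF2-treated PA6 and BMP4-treated co-cultures.

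Because replicate 1 was the highest array of every PA6 condition for ADIPOQ, CFD, LPL, CIDEC and S3-12, PA6 arrays were compared within replicate number, each number being a separate experiment with 1 well per condition by the labels. BMP4 minus -GFs was 2.69, 3.98 and 4.98 for ADIPOQ in replicates 1, 2 and 3, a mean of 3.88 ± 1.15 (SD, n = 3) or 14.8-fold. It was 2.97, 3.95 and 6.17 for CFD (20.6-fold on average) and 3.68, 4.15 and 5.15 for CIDEC, whose -GFs array of replicate 2 was undetected. LPL differed by 2.06, 1.74 and 2.98 (4.80-fold). These 4 genes were higher with BMP4 by over 1 on average and in all 3 replicates, which 0.782% of all genes were.

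The other members differed less evenly. S3-12 was higher by 1.38, 0.20 and 0.98, and AGT by 2.01 and 0.19 in replicates 1 and 3 but lower by 0.37 in replicate 2 (a difference of -0.37). LIPE differed by 3.83, -0.67 and 1.39, where replicate 2 had both arrays undetected, and CD36 was higher by 2.50 in replicate 2, with both arrays undetected in the others. CAR3 was higher by 1.54 in replicate 1 and undetected in the others. FABP4 had no measurable difference.

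In all, 6 of the 10 genes were higher with BMP4 in each replicate, against 14% of all genes. CAR3 is among the 6, though both of its arrays were undetected in replicates 2 and 3. None of the 7 tested members was called in this comparison, and neither was any of the 14829 genes (percent called 0), a called gene being 1 with a limma adjusted p under 0.1 and a log2 difference over 1 in size. At an unadjusted p under 0.05 there were 4 of the 7 members, beside 9% of all genes. This contrast was in view when the genes were chosen, so nothing is read from these counts.

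**Figure D2:**
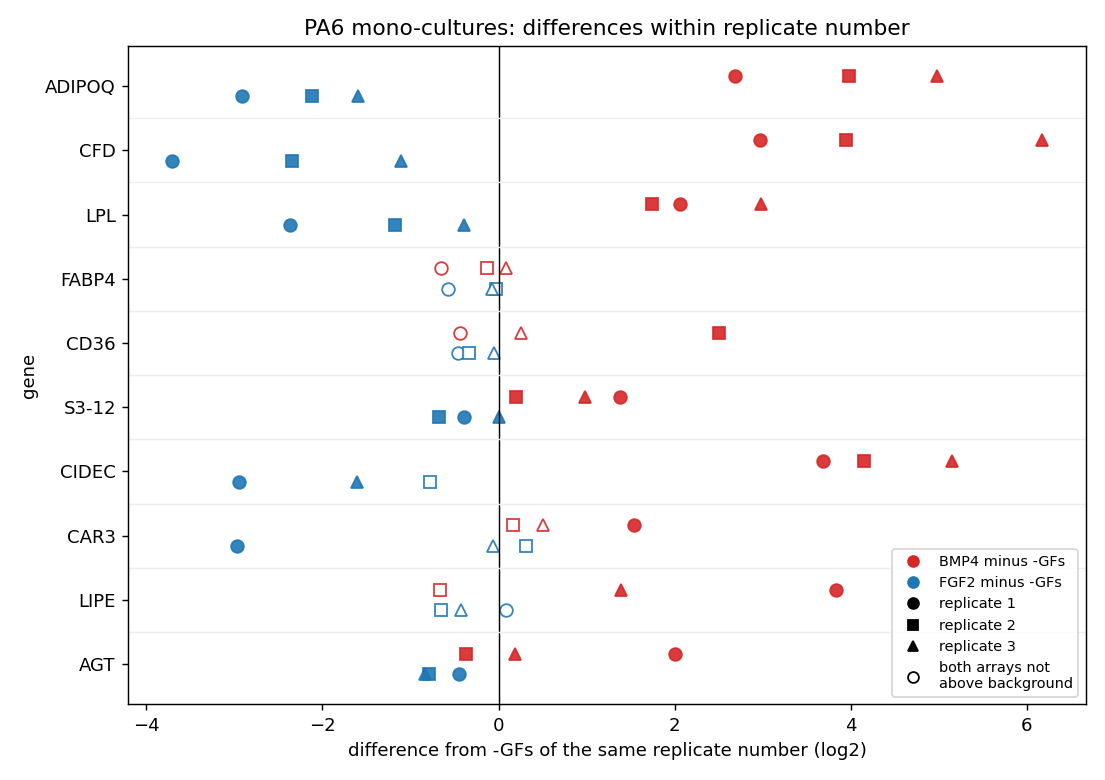
Difference of BMP4 (red) and FGF2 (blue) from -GFs of the same replicate number in PA6 mono-cultures, in log2 units on the horizontal axis; shapes are replicates and open points had both arrays not above background. For ADIPOQ, CFD, LPL and CIDEC all 3 BMP4 points lie to the right of 0 and all 3 FGF2 points to the left.

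FGF2 was compared with -GFs in PA6 to ask whether the other factor moved the same genes. All 10 genes averaged lower with FGF2, 3 of them (FABP4, CD36 and LIPE) with both groups undetected. Within replicates 1, 2 and 3, ADIPOQ differed by -2.91, -2.12 and -1.59, CFD by -3.71, -2.34 and -1.11, and CIDEC by -2.95, -0.78 and -1.61, where the CIDEC arrays of replicate 2 were both undetected. LPL differed by -2.37, -1.17 and -0.39 and AGT by -0.45, -0.79 and -0.83. CAR3 was lower by 2.97 in replicate 1 (a difference of -2.97), where alone it was detected, and S3-12 differed by -0.39, -0.67 and 0.01.

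Thus 7 of 10 genes were lower with FGF2 in all 3 replicates, against 19.5% of all genes, though 2 of the 7 were the undetected FABP4 and CD36. ADIPOQ, CFD, LPL and CIDEC, 4 of the 10, also averaged over 1 lower, which 0.479% of all genes did. The -GFs arrays used here are those of the BMP4 comparison, and the FGF2 arrays are those of BMP4 against FGF2 in PA6. Both of those contrasts were in view when the genes were chosen, so these counts are not independent of that choice.

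No member passed the test of FGF2 against -GFs in PA6, where 0.027% of all genes were called. In the limma fit over the 9 PA6 arrays, ADIPOQ differed by -2.21 ± 1.39 (SE; adjusted p = 0.600), CFD by -2.39 ± 1.33 (adjusted p = 0.563), CIDEC by -1.78 ± 1.50 (adjusted p = 0.698) and LPL by -1.31 ± 1.16 (adjusted p = 0.709). AGT differed by -0.69 ± 0.38 (adjusted p = 0.558). Without -GFs replicate 1 the differences were -0.80 for ADIPOQ, -0.90 for CFD, -0.25 for CIDEC and -0.16 for LPL. None of the 7 tested members had an unadjusted p under 0.05 in this fit, as 10.4% of all genes did. With replicate number as a block, which takes out the high level of replicate 1, 4 of the 7 did, where 12.4% of all genes did, and the SE of ADIPOQ fell to 0.38 from 1.39 (adjusted p = 0.129). CFD then had an adjusted p of 0.210, CIDEC of 0.222 and LPL of 0.269, so again none was called (0.155% of all genes were). The median over the 10 genes was -0.80, or -0.52 with undetected groups set at their bound, beside -0.0049 over all genes. Of the 7 osteoblast markers, SPP1, the secreted phosphoprotein osteopontin, averaged 12.22 in FGF2-treated PA6 and 9.53 in -GFs, and carried the summed level of the list, 4602 to 5947 against 874 to 1524. The other 6 averaged 5.40 to 6.64 with FGF2 and 5.65 to 6.52 in -GFs, each above background on at most 1 FGF2 array, with RUNX2, IBSP and SOST undetected on all 6 arrays. Its part in the differences was not tested.

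Set against each other, BMP4 and FGF2 gave the widest differences in stroma, given here as a description. BMP4 minus FGF2 averaged 6.09 ± 0.48 (SD, n = 3 replicates) for ADIPOQ, 6.75 ± 0.50 for CFD, 6.10 ± 1.03 for CIDEC and 3.57 ± 0.78 for LPL. On FGF2 replicate 2 all 4 genes were undetected, and CIDEC on replicate 3 as well, so that these differences are in part against values at background. AGT averaged 1.30 ± 1.05 and S3-12 1.20 ± 0.49 higher with BMP4. Every BMP4 array lay above every FGF2 array for 7 of the 10 genes, and 7.14% of all genes were placed so. CD36 is among the 7, though it was undetected on all but 1 of these arrays. None of the 7 tested members was called by limma without a block (0.31% of all genes were), 6 had an unadjusted p under 0.05 (9.27%), and 4 were called with replicate number as a block (0.486%), namely ADIPOQ, CFD, CIDEC and LPL. This contrast, too, was in view when the genes were chosen, and CIDEC met the detection condition only through its BMP4 arrays, so nothing is read from these counts.

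In co-cultures, FGF2 and -GFs were compared over 3 and 2 arrays. ADIPOQ, undetected on all 3 FGF2 arrays, was at least 1.79-fold lower on average, a difference carried by -GFs replicate 1, and had an adjusted p of 0.566. CFD differed by -1.40 ± 1.45 (SE; adjusted p = 0.630) and by 0.17 without -GFs replicate 1. LPL differed by 0.27 ± 0.29 (adjusted p = 0.641) and CAR3 by -0.32 ± 0.33 (adjusted p = 0.637). S3-12 and AGT were undetected in both groups and CIDEC in all but 1 of the 5 arrays. None of the 7 tested members was called by limma, or had an unadjusted p under 0.05, where 7.42% of all genes were called and 22.7% had such a p.

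With BMP4 in co-cultures, both arrays differed widely and the means follow 1 of them. ADIPOQ averaged 2.91 ± 1.44 (SE) higher than -GFs (adjusted p = 0.415), CFD 2.78 ± 1.59 (adjusted p = 0.496) and CIDEC 2.36 ± 1.26 (adjusted p = 0.462). AGT, undetected on both -GFs arrays, averaged 1.04 ± 0.43 higher (adjusted p = 0.317), a size that its bound does not reach. S3-12 was at least 1.61-fold higher (adjusted p = 0.472), and LPL and CAR3 differed by 0.22 ± 0.32 and 0.10 ± 0.37. None of the 7 was called by limma, 1 (AGT) had an unadjusted p under 0.05 as did 14.9% of all genes, and 3.75% of all genes were called.

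BMP4 replicate 2 held these differences. Without it, S3-12 differed by -0.02 and CIDEC by 0.04. Without replicate 1 in its place, S3-12 differed by 2.97 (adjusted p = 0.0179) and CIDEC by 4.68 (adjusted p = 0.0249), both called, with the lone BMP4 array assumed to vary like the other groups. With median scaling in place of quantile normalization, ADIPOQ, CFD, CIDEC and S3-12 were called, but the share of all genes called there was not counted. The -GFs array that stands in the same run of columns of the table was undetected for ADIPOQ, CFD, CIDEC, S3-12 and AGT. Against its background values for these genes, BMP4 replicate 2 was higher by 6.59 for ADIPOQ, 6.81 for CFD, 5.17 for CIDEC, 2.86 for S3-12 and 1.80 for AGT. For LPL, detected on both, BMP4 replicate 2 was higher by 0.75. The same array had the highest summed level of stromal markers among the co-cultures, 76438 against 54563 to 63254 on the other 6, and of preadipocyte markers, 50100 against 26026 to 44009 (sums of linear normalized intensity over 8 and 6 genes, all above background on this array). Their part in the result was not tested.

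Co-cultures and PA6 mono-cultures were compared under FGF2. The PA6 arrays of this comparison are also those of BMP4 against FGF2 in stroma. The members moved in both directions. S3-12 was at least 32.1-fold lower in co-cultures (adjusted p = 5.92e-07) and AGT at least 15.8-fold lower (adjusted p = 2.30e-07), both being undetected on all 3 co-culture arrays. LPL rose, at 11.38 ± 0.25 (SD, n = 3) in co-cultures against 7.38 ± 1.12 (n = 3) in PA6, a log2 difference of 4.01 ± 0.96 (SE; adjusted p = 0.00218) or 16.1-fold. CAR3 was at least 2.67-fold higher (adjusted p = 0.0508), with no PA6 array above background.

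These 4 of the 7 tested members were called in the limma fit over all 16 arrays, where 46.4% of all genes were. Perilipin 4 and AGT met the detection condition only through PA6 groups, and CAR3 only through co-culture groups. These 3 calls come from genes admitted by the side on which they were high, so nothing is read from the count of 4. LPL met the condition in groups of both kinds. ADIPOQ and CIDEC, undetected on the 3 co-culture arrays, were at least 2.28-fold and 1.33-fold lower and did not pass (adjusted p = 0.269 and 0.469), and CFD differed by -1.21 ± 1.45 (adjusted p = 0.473). The call of CAR3 rested on single arrays, since it missed the threshold when replicate 3 of the FGF2-treated co-cultures (2.31, adjusted p = 0.121) or of the FGF2-treated PA6 cultures (2.39, adjusted p = 0.111) was left out. Stromal markers summed to 54563 to 62365 in the FGF2-treated co-cultures and 178072 to 196712 in the FGF2-treated PA6 cultures, all 8 above background in both. Macrophage markers summed to 3579 to 6782 with 2 to 3 of 7 above background in these co-cultures, and to 993 to 1321 with 1 to 2 of 7 in PA6. Of 6 neural markers, 4 were above background on each of these co-cultures and none in PA6. Pluripotent markers summed to 100535 to 113332 in these co-cultures and 1328 to 1479 in PA6, and endothelial markers to 1986 to 3231 and 466 to 737. Their part in the differences was not tested, and in these bulk samples fewer cells of a type and less RNA per cell cannot be told apart.

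The same comparison without factor and with BMP4 is a description. Without factor, S3-12 and AGT were undetected in co-cultures, at least 39.2-fold and 24.5-fold lower than in PA6, while LPL averaged 2.42 higher and ADIPOQ 2.56 lower (a log2 difference of -2.56). With 1 array left out, the LPL difference ran from 1.8 to 3.6 and that of ADIPOQ from -3.93 to -1.15. With BMP4, the differences were -5.46 for S3-12, -5.28 for AGT, -4.43 for CIDEC, -3.78 for CFD and -3.54 for ADIPOQ, and 0.38 for LPL. These means depend on the 2 co-culture arrays, for without BMP4 replicate 1 they were -3.97 for S3-12, -4.60 for AGT, -2.11 for CIDEC, -1.33 for CFD and -1.22 for ADIPOQ, and without replicate 2 they were -6.95, -5.97, -6.75, -6.22 and -5.85. BMP4 replicate 1 was undetected for S3-12, AGT and CIDEC, so for these genes the values without replicate 2 are against background. LPL ran from -0.42 without PA6 BMP4 replicate 2 to 1.43 without PA6 BMP4 replicate 1. Of the 7 tested members, 3 were called without factor and 5 with BMP4, beside 44.1% and 42.4% of all genes. With the runs of columns in the table as a block the first count was 6, beside 44.3% of all genes. S3-12, AGT and CIDEC met the detection condition only through PA6 groups and CAR3 only through co-culture groups. Nothing is therefore read from these counts of calls. Every co-culture array lay below every PA6 array for 4 of the 10 genes in each of both comparisons, beside 36.6% and 37.2% of all genes, with 1 of the 4 undetected in both groups (LIPE without factor and FABP4 with BMP4).

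Whether the FGF2 effect itself differed between co-cultures and PA6 was tested as an interaction. The difference was 1.58 ± 1.45 (SE) for LPL (adjusted p = 0.577), 1.25 ± 2.16 for CIDEC (adjusted p = 0.788), 1.10 ± 0.59 for AGT (adjusted p = 0.306), 0.98 ± 2.17 for CFD (adjusted p = 0.837) and 0.73 ± 2.14 for ADIPOQ (adjusted p = 0.884). AGT and the perilipin among the 7 members were undetected in both co-culture groups, so no FGF2 effect was measured there. Their differences set the PA6 effect against background, and the test cannot decide the question for them. None of the 7 members was called by limma, or had an unadjusted p under 0.05, against 7.9% of all genes called and 21.8% at such a p.

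Other genes of the adipocyte programme were read from 6 lists of 65 genes in all, of which 51 could be tested. In BMP4-treated PA6 they averaged higher than -GFs for 41 of 51, with a median of 0.41 beside -0.016 over all genes, and 19 of 51 were higher in all 3 replicates (14% of all genes), 7 of them by over 1 on average (0.782%). None was called by limma (percent called 0), and 12 of 51 had an unadjusted p under 0.05, as 9% of all genes did. VLDLR, SLC2A4 and ADRB3 were undetected in both groups yet count among the 41, and ADRB3 among the 19. The lists were chosen with this contrast known. Of the genes of lipolysis and fatty acid handling, all 10 tested were positive (median 0.73), the undetected VLDLR included. So were 10 of 11 of lipid droplets and triglyceride synthesis (median 0.45). Genes of fatty acid synthesis were positive for 5 of 7 (median 0.50), secreted factors for 4 of 6 (0.17), insulin and hormone response for 6 of 7 (0.18) and transcription factors for 6 of 10 (0.10).

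Among them, DGAT2, which makes the last bond of triglyceride, was higher with BMP4 by 4.47, 2.60 and 3.82 in replicates 1, 2 and 3. ACSL1, which activates long-chain fatty acids, was higher by 3.57, 1.46 and 2.52. LCN2, the secreted lipocalin 2, by 4.07, 2.00 and 2.94 and PNPLA2, the lipase that opens triglyceride breakdown, by 2.94, 0.40 and 2.13 were named after their values were seen. The regulators differed less. PPARG was 10.63, 10.73 and 10.36 in PA6 -GFs and 12.63, 10.99 and 11.41 with BMP4, higher by 2.00, 0.25 and 1.05. CEBPA was higher by 1.46, 0.62 and 0.24. In all 4 genes and both regulators all 3 replicates were higher, and none passed the limma test over the 9 PA6 arrays (adjusted p = 0.532 for PPARG and 0.540 for CEBPA).

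**Figure D3:**
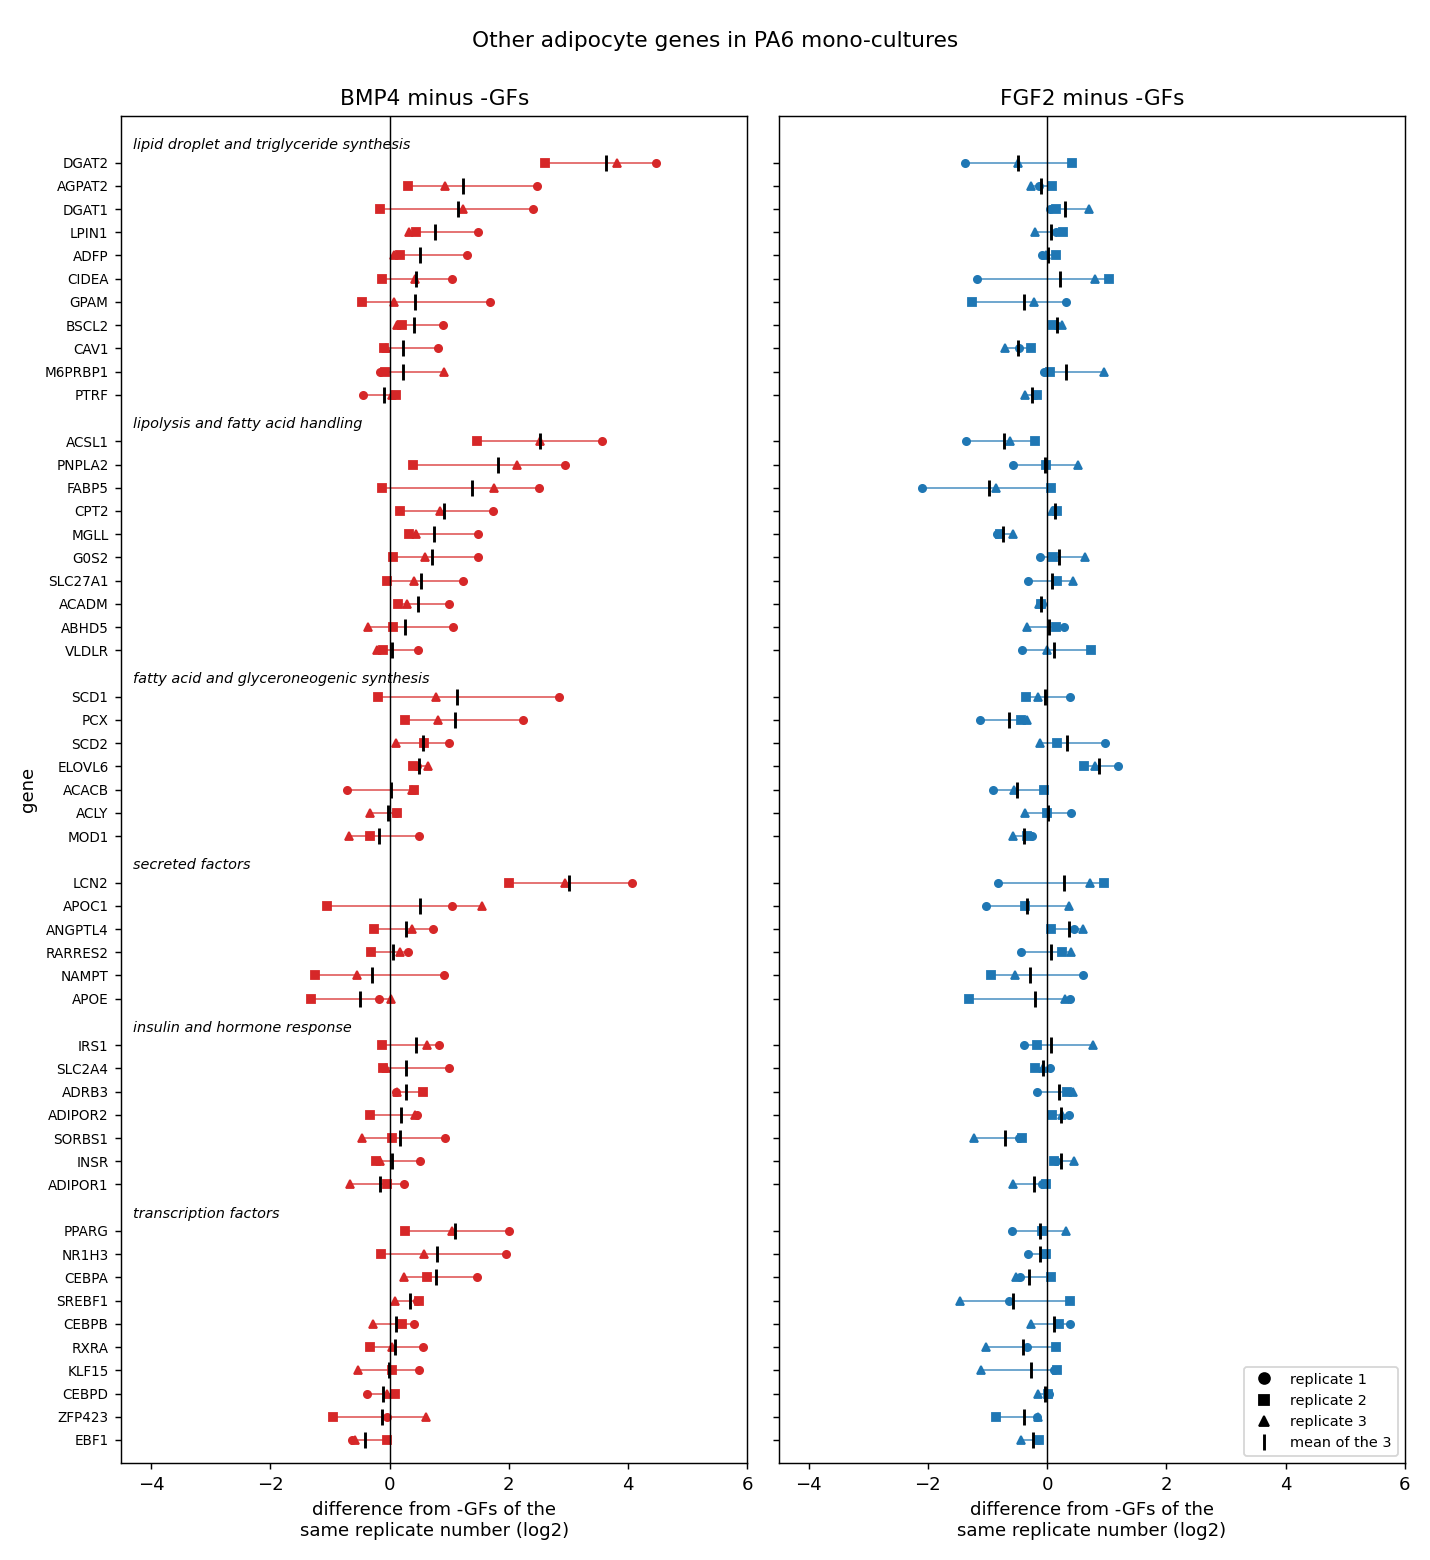
Difference of BMP4 (left) and FGF2 (right) from -GFs of the same replicate number for the 51 other adipocyte genes in PA6 mono-cultures, in log2 units on the horizontal axis; shapes are replicates, lines their range and ticks their mean, and genes are ordered by the BMP4 mean within each list. With BMP4 41 of the 51 means are above 0 and with FGF2 22 of 51, genes undetected in both groups included.

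With FGF2 in PA6, the 51 genes had a median of -0.07, with 22 positive, of which SLC27A1, VLDLR and IRS1 were undetected in both groups. Lower in all 3 replicates were 13 (19.5% of all genes), ZFP423 among them with both groups undetected, but none by over 1. None was called by limma (0.027% of all genes) and 3 had an unadjusted p under 0.05. PPARG differed by -0.12 ± 0.38 (SE) and CEBPA by -0.30 ± 0.32. Between BMP4 and FGF2, 21 of 51 were higher with BMP4 in all 3 replicates (16.7% of all genes), SLC2A4 among them though undetected in both groups. None was called by limma without a block (0.31% of all genes were). DGAT2 and ACSL1 were called with replicate number as a block (adjusted p = 0.0711 and 0.0903, with 0.486% of all genes called), in a contrast that was in view when the lists were chosen.

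In co-cultures, 6 of these 51 genes were called with FGF2, where 7.42% of all genes were. Macrophage markers summed to 3579 to 6782 with FGF2 and 656 to 799 in -GFs, and endothelial markers to 1986 to 3231 and 485 to 574. Pluripotent markers summed to 100535 to 113332 and 37362 to 42699, and neural markers to 21029 to 23785 and 37677 to 47511. Their part in the calls was not tested. ANGPTL4, a secreted inhibitor of LPL, rose by 2.26 ± 0.31 (SE; adjusted p = 0.0105), APOC1, an apolipoprotein, by 2.08 ± 0.36 (adjusted p = 0.0228), ACACB, which makes malonyl-CoA, by 1.58 ± 0.40 (adjusted p = 0.0672) and AGPAT2, an acyltransferase of triglyceride synthesis, by 1.13 ± 0.23 (adjusted p = 0.0354). ACACB was not called with replicate number or the runs of columns as a block. ZFP423, a regulator of preadipocyte commitment, fell by 1.29 (adjusted p = 0.0377) and SLC2A4, the insulin-responsive glucose transporter, fell by 1.16 (adjusted p = 0.0275). Without -GFs replicate 1 the count was 2. With BMP4, APOC1 rose by 1.77 ± 0.40 (adjusted p = 0.0829) and AGPAT2 by 1.06 ± 0.25 (adjusted p = 0.0958), 2 of 51 beside 3.75% of all genes, a count that ran from 0 (without -GFs replicate 1) to 3 (without BMP4 replicate 1). With replicate number or the runs of columns as a block, neither APOC1 nor AGPAT2 was called for BMP4. PPARG in co-cultures was also highest on BMP4 replicate 2, at 6.51 and 9.31 with BMP4 and 5.95 to 6.72 on the other 5 arrays.

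Under FGF2, 12 of the 51 were higher and 20 lower in co-cultures than in PA6, beside 46.4% of all genes called. Among the 6 with the largest fitted differences, APOC1 was higher with 4.09 on the log2 scale, and PPARG, above background on 1 of the 3 co-culture arrays, and the adipokine RARRES2 were lower, with -4.17 and -3.61. For the others only a bound could be given, since 1 group was undetected on all its arrays. VLDLR, a receptor for triglyceride-rich lipoproteins, was at least 21.1-fold higher and APOE, the lipid-carrying apolipoprotein, at least 25.7-fold higher in co-cultures, and the liver X receptor NR1H3 was at least 7.53-fold lower. CEBPA, also undetected in the co-cultures, was at least 5.37-fold lower. The FGF2 effect differed between kinds of culture for 6 of the 51, all in the positive direction, where 7.9% of all genes were called: APOC1 with 2.42, ACACB with 2.09, ANGPTL4 with 1.89, RXRA with 1.53, CAV1 with 1.17 and ACADM with 1.07. ACACB was undetected on all 3 FGF2-treated PA6 arrays. Without co-culture -GFs replicate 1 this count was 2.

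The genes most like the members were sought over the 9 PA6 arrays, by Pearson correlation of each of 11746 detected genes with the mean of the z-scored values of the 6 members above background on every array of at least 1 PA6 group. The mean profile was highest on BMP4 replicate 1 (1.83), then BMP4 replicate 3 (0.84) and -GFs replicate 1 (0.41), and lowest on FGF2 replicate 2 (-1.11). ADIPOQ, CFD, LPL, S3-12 and CIDEC each correlated with it at 0.967 to 0.979 and AGT at 0.741. The correlations are a description over 9 arrays of 3 experiments that share factor and replicate number.

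The 10 most alike were CLSTN3 (r = 0.971), ORM1 (0.969), ACSL1 (0.966), LIMK2 and ADAMTSL4 (0.963 each), SLC5A6 (0.960), MGLL (0.960), FMO1 (0.959), DGAT2 (0.958) and CAR5B (0.954). ACSL1, DGAT2 and MGLL, the lipase that splits monoglyceride, stand on the adipocyte lists above. ORM1, the acute-phase protein orosomucoid, had 10.48, 6.05 and 6.88 in PA6 -GFs, 8.13, 5.67 and 5.82 with FGF2, and 13.93, 9.06 and 10.27 with BMP4. CLSTN3, a calsyntenin of the cadherin family, went from 5.73 to 7.30 in -GFs to 7.32 to 11.01 with BMP4. LIMK2, a kinase of the actin cytoskeleton, and ADAMTSL4, a matrix protein, moved within a narrow range, 9.62 to 10.68 and 9.11 to 10.12.

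**Figure D4:**
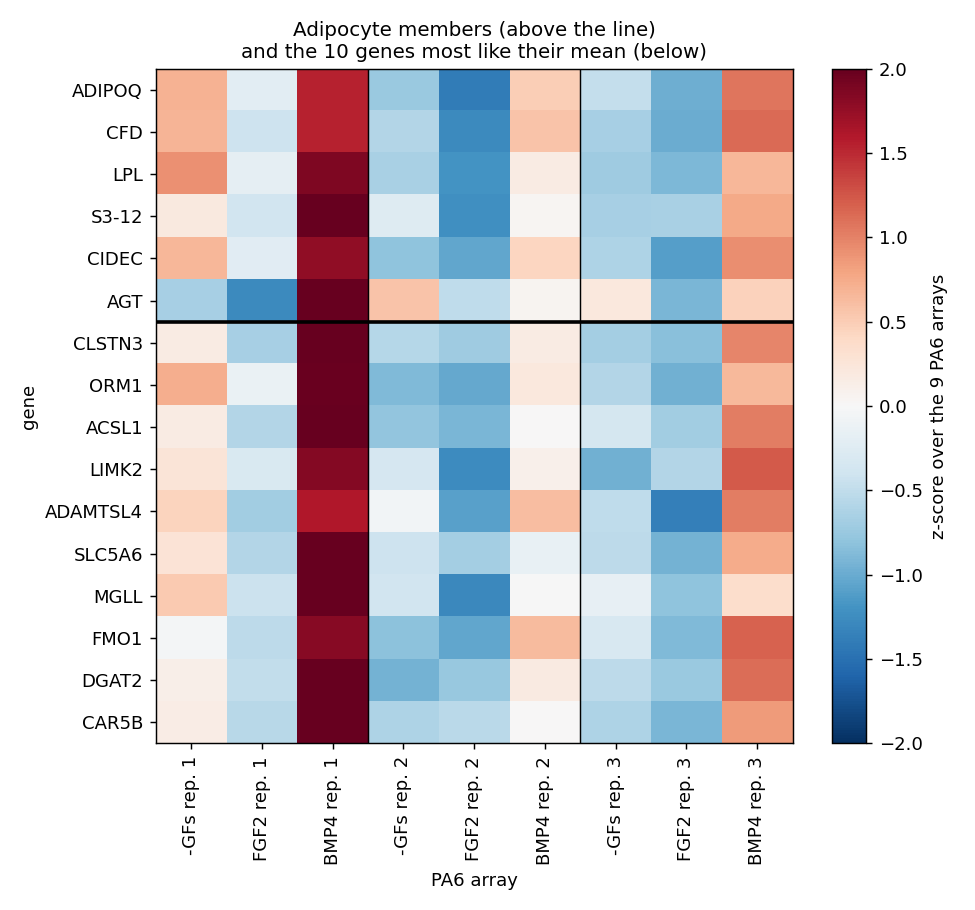
Heat map of the 6 members detected in PA6 (above the line) and the 10 genes most like their mean (below), as z-scores over the 9 PA6 arrays (colour; red high, blue low); columns are arrays, grouped by replicate number. In every replicate the BMP4 array is the highest of its 3 for ADIPOQ, CFD, LPL, S3-12 and CIDEC, and AGT departs in replicate 2.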

How the data were processed

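Total RNA of 16 cultures was hybridised to MouseWG-6 v2.0 bead arrays. The authors deposited a table of non-normalized probe intensity values and, beside each, its detection p-value; the submitters' processing notes name GenomeStudio 2011.01, in which, by the methods, the study itself normalized with cubic splines. Arrays limit precision by their number. From the deposited intensities, limma 3.58.1 in R 4.3.3 computed log2 values by neqc (background from detection p, quantile normalization, offset 16). A probe was kept where all arrays of some group had detection p under 0.05, with 1 probe per gene (the largest mean), leaving 14829 genes. limma's moderated test with Benjamini-Hochberg adjustment was fitted over the 9 PA6 arrays, the 7 co-culture arrays, or all 16 for comparisons between kinds of culture, and genes with adjusted p under 0.1 and a log2 difference over 1, the methods' thresholds, were called. The scripts were tested on simulated data. Where a group was undetected on all its arrays, the fold is a bound, the bright mean against the higher of the lowest detected signal and the dim probe's own.

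The members and lists were chosen with earlier results of these data known. Named were the 10 members, of the other adipocyte genes the called ones (at most 6 per comparison) with PPARG and CEBPA, and the 10 genes most correlated with the members. Of the other adipocyte genes, LCN2 and PNPLA2 were also named, after their values were seen, and some more for being undetected. The labels describe each biological replicate as 1 well per condition, and PA6 arrays of the same number deviated together (r = 0.0697 to 0.199 over 9 pairs, against -0.136 to -0.0122 over 18 pairs of different numbers), so PA6 arrays were also fitted with replicate number as a block. Deviations from a group mean cancel out within the group, so the negative r of different numbers is not an independent baseline. For co-cultures, whose numbers did not all pair the arrays, p-values measure only the spread between these arrays, which may be technical. Promoter sequences are RefSeq's on GRCm38.p6. Alternatives were median scaling, no background correction, other detection filters, other probes, other thresholds, blocks, 1 fit of all arrays and each array left out.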

Additional observations from a re-analysis of the deposited data

Results flagged for a closer look

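LIPE has 3 probes on the array, and 1 that the comparisons did not use, ILMN_3111326, was above background on arrays where the -GFs arrays of the same kind of culture were lower. It measured 7.86 (log2) on PA6 BMP4 replicate 1, the array on which the brightest LIPE probe was also highest. It measured 6.42 on co-culture FGF2 replicate 3, where the brightest LIPE probe was undetected at 5.86.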

How the results depend on the processing

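Each group had 2 or 3 arrays, and this number limits what could be told apart. In co-cultures with BMP4, 4 members were called under median scaling against 0, namely ADIPOQ with 3.16, CFD with 3.01, CIDEC with 2.54 and S3-12 with 1.62 (limma adjusted p = 0.000764, 0.00283, 0.00558 and 0.0589), where limma's prior degrees of freedom were 54.7 against 3.17. The share of all genes called under median scaling was not counted, so nothing is read from the 4 calls. Leaving out 1 array gave 0 to 2. Median scaling moved the median of all genes by -0.15 for FGF2 in co-cultures, by -0.12 for BMP4 in PA6, and between kinds of culture by -0.11 without factor, -0.14 with FGF2 and 0.12 with BMP4. Requiring detection on all 16 arrays left none of the members to test.

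Counts of other adipocyte genes moved more, and the share of all genes called under each of these settings was not counted. For BMP4 in co-cultures the count of 2 became 6 under median scaling, 1 without background correction, 0 with detection on all 16 arrays, 0 without the filter, 0 at adjusted p under 0.05 and 0 to 3 with 1 array left out. For FGF2 in co-cultures 6 became 3 without background correction, 3 with detection on all arrays and 2 to 7 with 1 left out, and for the difference of the FGF2 effect 6 became 3 under median scaling, without the filter and at adjusted p under 0.05, and 2 to 8 with 1 left out. Between kinds of culture, detection on all arrays lowered 31 to 17 without factor, 32 to 18 with FGF2 and 37 to 22 with BMP4. BMP4 against FGF2 in PA6 had 1 in place of 0 when all 16 arrays were fitted together, and 0 to 2 with 1 left out.

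With replicate number as a block, BMP4 against FGF2 in PA6 had 2 other adipocyte genes called in place of 0 and BMP4 in co-cultures 0 in place of 2. In co-cultures the numbers did not all pair the arrays (r = -0.199 to 0.283 over 6 pairs). The runs of columns in the table as a block, chosen after seeing the data, gave 2 and 1 for these counts. The 1 was a gene of the transcription factor list, not APOC1 or AGPAT2. This block gave 6 members called in place of 3 between co-cultures and PA6 without factor, beside 44.3% of all genes. It called ADIPOQ between co-cultures and PA6 with FGF2 (-1.83, limma adjusted p = 0.0667). That value is against undetected co-culture arrays, where the bound is at least 2.28-fold lower. The block turned S3-12 to 0.26 and CIDEC to 0.16 for FGF2 and CAR3 to -0.18 for BMP4 in co-cultures.

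Leaving out 1 array turned the sign of uncalled values. In co-cultures with FGF2, CFD ran from -2.98 to 0.17 and LPL from -0.17 to 0.71. With BMP4, LPL ran from -0.22 to 0.66, S3-12 from -0.0152 to 2.97 and CAR3 from -0.32 to 0.52. In PA6 with FGF2, CAR3 ran from -1.48 to 0.22, and without changing sign ADIPOQ ran from -3.26 to -0.80, CFD from -3.21 to -0.90, CIDEC from -2.72 to -0.25 and LPL from -1.93 to -0.16. For the difference of the FGF2 effect, ADIPOQ ran from -0.68 to 2.10, CFD from -0.59 to 2.56, CIDEC from -0.28 to 2.19 and CAR3 from -0.54 to 1.16. LPL ran from 0.43 to 2.21 there, without changing sign. The cause of these changes was not tested.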
